A study of Homo sapiens with 3 samples.

Results

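CYR61 and CTGF are secreted proteins of the CCN family and are widely used as transcriptional readouts of the Hippo pathway. They were examined here in 1205Lu melanoma cells together with 8 further genes. NOV, WISP1 and WISP2 are other CCN family members, ANKRD1, AMOTL2 and LATS2 are known targets of the coactivator YAP, and TEAD1 and TEAD4 encode DNA-binding partners of YAP. The 10 genes were chosen by name, with results of these arrays already known, so their levels and ratios are given as a description. Every probe that carried 1 of the 10 names on the array was used, which gave 15 probes of 41000 and 10 gene names of 30982. The array used CCN family names that have since changed: CYR61 is now CCN1, CTGF is CCN2, NOV is CCN3, WISP1 is CCN4 and WISP2 is CCN5.

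1205Lu is a human melanoma line, established from a lung metastasis that the line WM793 formed in a mouse. RNA from 3 cell populations of this line was hybridised, each to 1 array of the same slide. The original monolayer (OM) was kept for 14 days in RPMI-1640 with 10% FCS. The melanoma bodies (MB) were 3D bodies that formed over 14 days in hESC medium, which is DMEM F-12 with 20% KO serum replacement. The new monolayer (NM) came from bodies returned to the RPMI-1640 medium with 10% FCS for 10 days, after the remaining 3D bodies had been taken away. Medium, serum and growth form changed together between MB and both monolayers, so they cannot be told apart. With 1 array per population there is no replicate and no test between populations, and only the technical spread between repeated spots can be given.

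In the Hippo pathway, the kinases STK3 and STK4 activate the kinases LATS1 and LATS2, which phosphorylate YAP and its relative TAZ and hold them in the cytoplasm. When the cascade is low, for instance in spread cells on a stiff surface or in cells exposed to serum lipids, YAP and TAZ enter the nucleus and bind TEAD factors at their target genes. CYR61, CTGF, ANKRD1 and AMOTL2 are among the targets most often measured, and LATS2 and AMOTL2 also act back on YAP as inhibitors. The CCN proteins are matricellular: they bind integrins and growth factors and influence adhesion, migration and matrix turnover.

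Signals are in arbitrary units (a.u.) as deposited, and a fold compares signals scaled to 3 housekeeping genes of the same array, ACTB, GAPDH and HSP90AA1. The mean of the 3 was 131555 a.u. in OM, 128596 in MB and 115402 in NM. Single spots of repeated probes varied with a median SD of 0.06 in the log2 ratio of MB to either monolayer and of 0.07 in NM over OM, over 199 to 201 probes printed in 10 spots. The lowest signal that the scanner software called well above background was 20.9 a.u. in OM, 19.4 in MB and 29.1 in NM, and a fold against a dimmer spot is given as a lower bound. The brightest probe of a gene stands for it in counts, and a gene was counted past a fold only if its brighter array was above 100 a.u. The 3 comparisons share arrays, so they are not independent. All 15 member probes had 1 spot each, none saturated. Among the 8 melanocyte lineage markers, S100B was 25155, 43760 and 13307 a.u. and SOX10 6254, 9382 and 4887 a.u. in OM, MB and NM. In the same order MITF was 423, 718 and 551 a.u. and MLANA 31.3, 39.5 and 26.5, the last not well above background. SILV was lowest in MB, at 286, 209 and 271 a.u., and DCT was nearly level at 66.7, 62.8 and 64.1. TYR and TYRP1 were not well above background on any array.

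**Figure D1:**
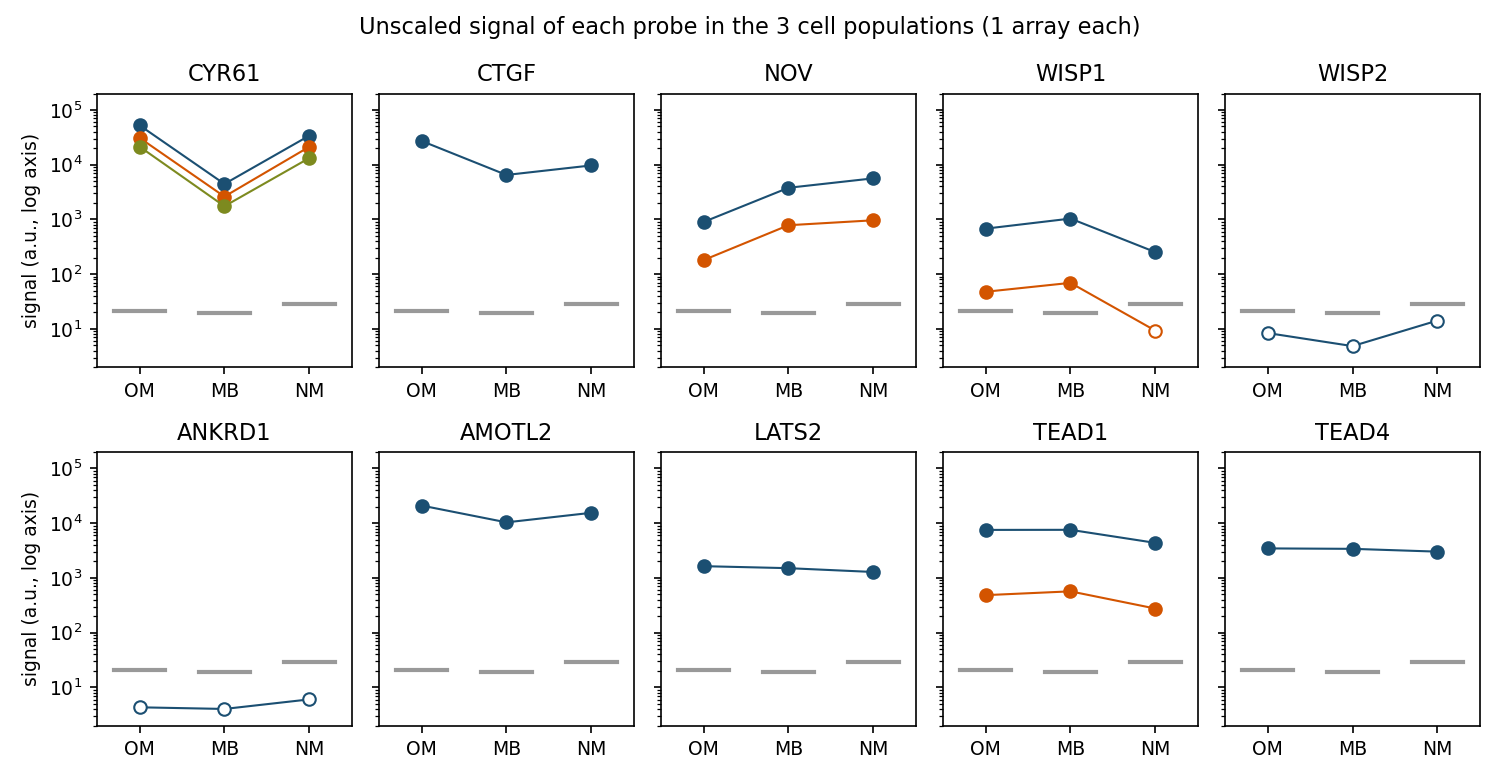
Unscaled signal (a.u., log axis) of every probe of the 10 genes in OM, MB and NM, 1 array each; colours separate probes of a gene, open points were not well above background, and grey bars mark the lowest signal well above background on that array. All 3 CYR61 probes were lowest in MB, and NOV was lowest in OM.

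CYR61 was the member with the largest difference. Its scaled signal in MB was below 12% of that in either monolayer, and 3 separate probes gave nearly the same ratios. CYR61 is an immediate early, secreted matricellular protein that signals through integrins. All 3 probes lie on the plus strand of chromosome 1 (hg17, the build in the files). One of them, at chr1:85760465-85760524, holds no stop codon when read from its first base, and it is shown because it lies farthest upstream of the 3 and gave the same result as those nearer to the 3' end:
CYR61 probe: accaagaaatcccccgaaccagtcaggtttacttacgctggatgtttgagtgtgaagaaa

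The brightest CYR61 probe, at chr1:85760974-85761033, read 52406 a.u. in OM, 4449 in MB and 33941 in NM. The probe at chr1:85761192-85761251 read 30932, 2616 and 21254 a.u. in the same order, and the upstream probe printed above read 21352, 1744 and 13223 a.u. MB was far below both monolayers at each probe, and NM was somewhat below OM at each.

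After scaling, CYR61 was 11.5-fold lower in MB than in OM at the brightest probe, 11.6-fold lower at the second and 12.0-fold lower at the upstream probe. The log2 ratio MB over OM was -3.55 ± 0.03 (SD over 3 probes), so the differences between probes were smaller than the spread of single spots. Against NM, MB was 8.50-fold, 9.05-fold and 8.45-fold lower, with a log2 ratio of -3.11 ± 0.06 (SD over 3 probes). The gap between the monolayers was small beside these: NM was 1.35-fold, 1.28-fold and 1.42-fold lower than OM, a log2 ratio of -0.43 ± 0.08 (SD over 3 probes). MB thus held 8.68% of the scaled OM signal and 11.8% of the NM signal at the brightest probe, and NM held 73.8% of the OM signal. Ordered by the ratio MB over OM, CYR61 stood at rank 8 from the lowest of 17672 gene names well above background on both arrays and above 100 a.u. on the brighter, and for MB over NM at rank 67 of 17365.

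CTGF, a secreted cofactor of TGF-beta signalling and matrix production, was also lowest in MB but stayed low in NM. Its single probe, at chr6:132311823-132311882 (hg17, minus strand), read 27142 a.u. in OM, 6499 in MB and 9700 in NM. OM stood apart from the other populations, and NM lay nearer to MB than to OM. The scaled signal in MB was 4.08-fold lower than in OM and 1.66-fold lower than in NM, and NM was 2.45-fold lower than OM. NM thus held 40.7% of the OM signal of CTGF, against 73.8% for CYR61. By the ratio MB over OM, CTGF stood at rank 106 from the lowest of 17672 gene names, and by MB over NM at rank 2756 of 17365.

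TEAD factors bind the core motif GGAATG, which reads CATTCC on the other strand. Promoter sequence from RefSeq (GRCh38.p14) was at hand for 4 of the 10 genes, in 5 windows, and the 250 bases upstream of each start were searched on both strands. Of 35116 such windows, 11.9% held the motif at least once, 0.94% held it 2 or more times and 0.0826% 3 or more times. The CTGF window held it 3 times, at 169 to 164, 104 to 99 and 95 to 90 bases before the start, and it is printed because none of the other member windows held as many. A match describes the letters and is not a measured binding site. The window lies at chr6:131951373-131951622 (GRCh38.p14, minus strand), with the motif in capitals:
CTGF upstream: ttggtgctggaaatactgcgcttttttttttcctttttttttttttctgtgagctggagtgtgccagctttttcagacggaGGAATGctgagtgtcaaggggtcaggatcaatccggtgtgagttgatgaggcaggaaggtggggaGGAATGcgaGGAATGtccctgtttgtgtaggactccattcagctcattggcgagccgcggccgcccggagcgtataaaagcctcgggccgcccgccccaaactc

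**Figure D2:**
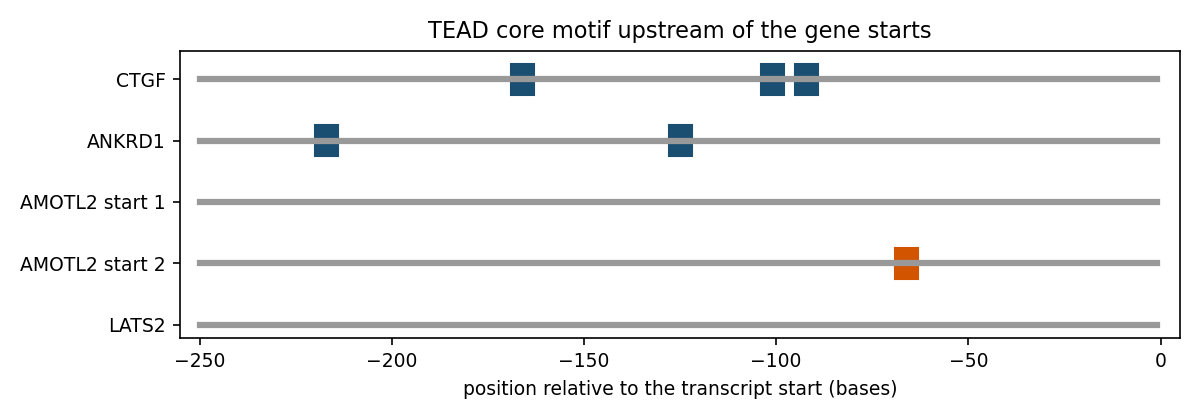
Position (bases before the transcript start) of the TEAD core motif in the 5 upstream windows of 250 bases, with blue blocks for GGAATG as written and orange for its reverse. CTGF held 3, ANKRD1 held 2, the second AMOTL2 start held 1, and the first AMOTL2 start and LATS2 held 0.

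The YAP targets other than CYR61 and CTGF did not share their pattern as a group. ANKRD1, a nuclear ankyrin repeat protein and 1 of the most used YAP targets, was not well above background in any population. Its probe (chr10:92662542-92662601, hg17, minus strand) read 4.33 a.u. in OM, 4.04 in MB and 6.04 in NM, all under the lowest signal called well above background. No fold is given for it. The motif count in its promoter stood next to that of CTGF, with copies at 220 to 215 and 128 to 123 bases before the start. The window is at chr10:90921088-90921337 (GRCh38.p14, minus strand), with the motif in capitals:
ANKRD1 upstream: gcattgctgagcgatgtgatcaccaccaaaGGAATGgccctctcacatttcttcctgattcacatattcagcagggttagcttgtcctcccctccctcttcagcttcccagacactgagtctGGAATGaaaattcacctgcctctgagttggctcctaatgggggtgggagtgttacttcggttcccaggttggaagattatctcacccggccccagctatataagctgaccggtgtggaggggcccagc

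AMOTL2, an angiomotin family scaffold that binds and retains YAP, followed the order of CYR61 at smaller size. Its probe (chr3:135557440-135557499, hg17, minus strand) read 21019 a.u. in OM, 10365 in MB and 15489 in NM. MB was the lowest and OM the highest, with NM between them. The scaled signal was 1.98-fold lower in MB than in OM and 1.67-fold lower in MB than in NM, and NM was 1.19-fold lower than OM. With 1.98-fold it stood just outside the 2-fold step, and CTGF with 4.08-fold was the nearest member inside it. Scaling by the 75th percentile, by quantiles, by spike-in probes, by the geometric mean of the housekeeping genes or not at all put AMOTL2 between 2.02-fold and 2.40-fold. The first AMOTL2 start held no TEAD core motif in its window, and the second start held it 1 time, at 69 to 64 bases before the start in the reverse orientation. That second window, shown as the contrast to CTGF, lies at chr3:134374448-134374697 (GRCh38.p14, minus strand), with the motif in capitals:
AMOTL2 upstream, second start: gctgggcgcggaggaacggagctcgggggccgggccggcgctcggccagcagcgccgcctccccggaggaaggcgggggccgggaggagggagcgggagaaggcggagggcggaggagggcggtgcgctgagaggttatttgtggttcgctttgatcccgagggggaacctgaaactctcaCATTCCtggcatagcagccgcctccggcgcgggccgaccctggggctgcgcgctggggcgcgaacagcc

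LATS2, the kinase that phosphorylates YAP and is itself a YAP target, was nearly level. The probe (chr13:20446786-20446845, hg17, minus strand) read 1641 a.u. in OM, 1508 in MB and 1285 in NM. The scaled folds were 1.06 lower in MB than in OM, 1.05 higher in MB than in NM, a direction that changed with the scaling, and 1.12 lower in NM than in OM. The first of these was 0.09 on the log2 scale, close to the technical spread of a single spot. No TEAD core motif was in its upstream window.

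The TEAD factors themselves showed no difference of CYR61's size. TEAD1 is the broadly expressed member of the family, and TEAD4 is best known from early embryo and muscle. The brighter TEAD1 probe (chr11:12921801-12921860, hg17, plus strand) read 7545 a.u. in OM, 7572 in MB and 4373 in NM, and the dimmer one (chr11:12908300-12908359) read 485, 569 and 276 a.u. OM and MB lay close together at both probes, and NM was lower. On scaled signals, MB was 1.03-fold and 1.20-fold higher than OM, with a direction at both probes that changed with the scaling, and 1.55-fold and 1.85-fold higher than NM, and NM was 1.51-fold and 1.54-fold lower than OM. TEAD4 (chr12:3019652-3019816, hg17, plus strand, a probe of 60 bases over a longer genomic span) read 3464 a.u. in OM, 3402 in MB and 3025 in NM. After scaling, its 3 populations lay within 1.01-fold of each other.

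**Figure D3:**
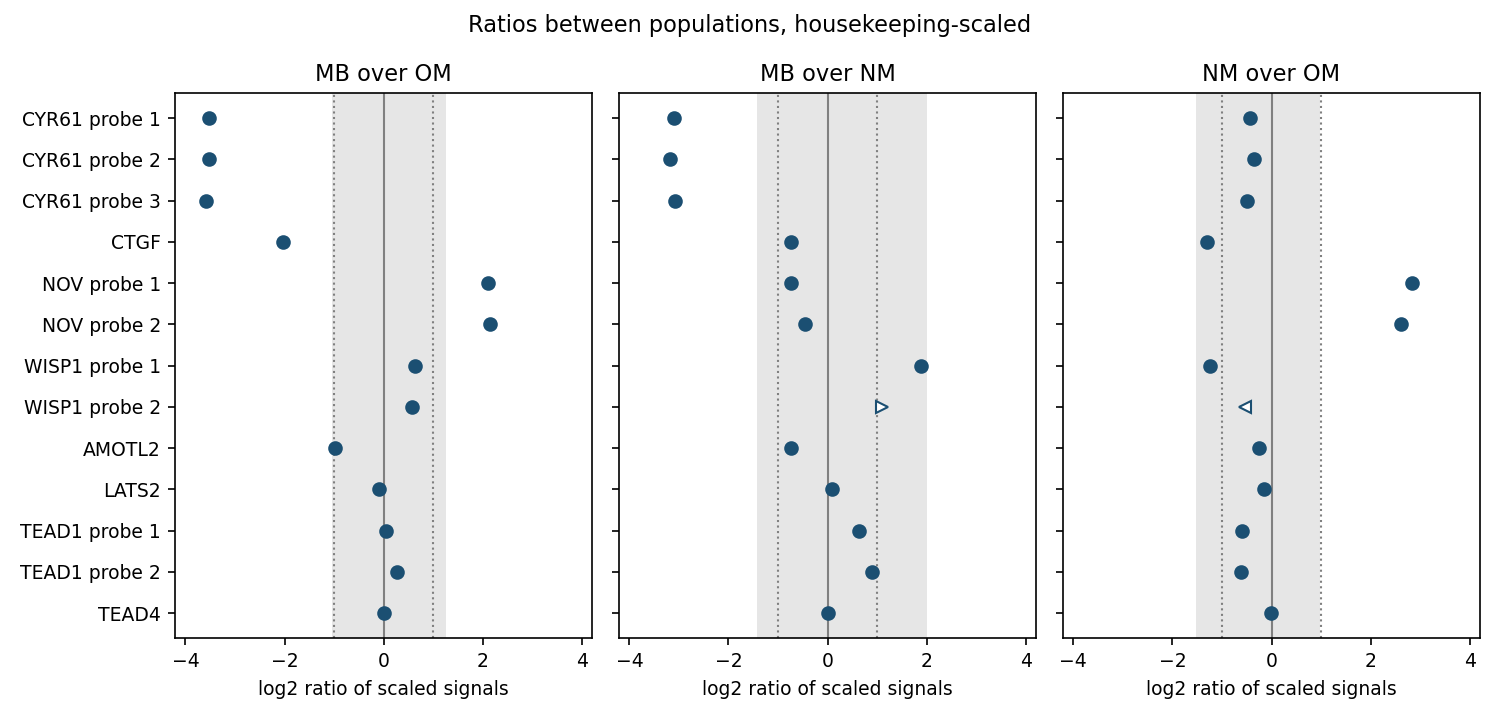
Log2 ratio of housekeeping-scaled signals for each probe of the 8 genes measured above background, in the 3 comparisons. Points carry the technical SD of a single spot, which is smaller than the symbol, open triangles are lower bounds, dotted lines mark 2-fold, and grey bands hold the 5th to 95th percentile of all measured gene names, for MB over OM -1.05 to 1.26; CYR61, CTGF and NOV lie outside that band.

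The other CCN genes moved differently from CYR61 and CTGF. NOV, a CCN protein first found near a viral insertion in kidney tumours and known in the skin for the adhesion of melanocytes to the basement membrane, was lowest in OM. Its brighter probe (chromosome 8, 120505616 to 120505675, hg17) read 900 a.u. in OM, 3788 in MB and 5635 in NM, and its dimmer probe (120504480 to 120504539) read 181, 784 and 965 a.u. Both MB and NM were well above OM at each probe, and NM was the highest. Scaled, MB was 4.31-fold and 4.44-fold higher than OM, NM was 7.14-fold and 6.09-fold higher than OM, and MB was 1.66-fold and 1.37-fold lower than NM. In the ratio NM over OM, NOV stood at rank 36 from the highest of 17293 gene names.

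WISP1, a CCN gene induced by WNT signalling, was highest in MB and lowest in NM. Its brighter probe (chromosome 8, 134310684 to 134310743, hg17) read 679 a.u. in OM, 1037 in MB and 253 in NM. The scaled signal in MB was 1.56-fold higher than in OM and 3.68-fold higher than in NM, and NM was 2.36-fold lower than OM. The dimmer probe (134309049 to 134309108) read 47.7, 69.4 and 9.3 a.u., the last not well above background, and MB was 1.49-fold higher than OM and at least 2.14-fold higher than NM. Both probes gave the same order.

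WISP2, a CCN protein that lacks the C-terminal domain of the others, was not well above background in any population. Its probe (chromosome 20, 42789761 to 42789820, hg17) read 8.4 a.u. in OM, 4.85 in MB and 14.2 in NM. WISP3, the remaining family member, read 4.95 a.u. in OM, 4.43 in MB and 243 in NM at its single spot. On the NM array 62 spots were bright there alone, and the nearest of them lay 1 row or column from the WISP3 spot. Its part in the WISP3 value was not tested.

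Counted by gene, CYR61 and CTGF were lower in MB than in OM by 2-fold or more, against 3.39% of all gene names measured, and NOV was higher, against 5.42%. These shares of all gene names changed places under spike-in scaling, to 6.10% and 3.19%. CYR61 alone was 5-fold or more lower, against 0.554%. NOV, at 4.31-fold, was the member nearest below the 5-fold step. Between MB and NM, CYR61 was the member lower in MB by 2-fold or more and WISP1 the member higher, against 8.39% and 11.1% of gene names, and CYR61 was also past 5-fold, against 1.35%. Between NM and OM, CTGF and WISP1 were lower in NM by 2-fold or more, against 4.86%, and NOV was higher, against 3.54%. NOV was past 5-fold there, against 0.621%, a share of 0.162% with normexp and 0.218% without background subtraction, where its dimmer probe was at 4.55-fold and 4.86-fold. The members were chosen with such values known, so nothing is read from these shares. AMOTL2, LATS2, TEAD1 and TEAD4 stayed under 2-fold in all 3 comparisons, apart from AMOTL2 in MB over OM under the 5 scalings named above.

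A wider list of 22 YAP/TAZ target genes, which includes 5 of the members, was compared as a whole. Of its 21 genes on the array, 19 were measured in MB or OM, of which 3 were lower in MB by 2-fold or more, CYR61, CTGF and CRIM1, and 0 were higher. CRIM1, a transmembrane protein that binds BMPs, read 824 a.u. in OM, 400 in MB and 633 in NM, a 2.01-fold difference between OM and MB that was under 2-fold with normexp or without background subtraction. The median log2 ratio MB over OM was -0.19, against 0.09 over all 22209 measured gene names. Of those names, 3.39% were 2-fold or more lower in MB and 5.42% higher. Without the members, 15 measured genes were left with 1 lower by 2-fold, 0 higher and a median of 0.15.

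Among those 15 genes, the next lowest after CRIM1 were CCDC80, GADD45A and AXL, at log2 ratios MB over OM of -0.89, -0.84 and -0.39. CCDC80 is a matrix protein, GADD45A a stress-induced growth arrest gene and AXL a receptor tyrosine kinase. DOCK5, MYOF, F3, FOXF2, ASAP1, NT5E, PTPN14, ARHGEF17 and FJX1 lay between -0.35 and 0.41, and IGFBP3 and RBMS3 were the highest at 0.71 and 0.85. These values are from the brightest probe of each gene, and some signs depended on the probe. Over their measured probes, RBMS3 ran from -0.21 to 0.85 and DOCK5 from -0.35 to 0.47. ARHGEF17 ran from -0.41 to 0.39, and MYOF from -0.81 to -0.26. None of the genes other than the members reached the fold of CYR61 or of CTGF in MB over OM.

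Between MB and NM, 20 genes of the list were measured, of which 3 were lower in MB by 2-fold or more and 2 were higher, with a median log2 ratio of 0.03 against 0.06 over 21925 gene names. The lower ones were CYR61, GADD45A and TGFB2, and the higher ones were FJX1 and RBMS3. Of all gene names, 8.39% were 2-fold or more lower in MB than in NM and 11.1% higher. GADD45A read 30264 a.u. in OM, 16472 in MB and 61878 in NM. TGFB2 was well above background in NM alone, at 119 a.u. on a single spot. Between NM and OM, CTGF, CCDC80 and DOCK5 were lower in NM by 2-fold or more, IGFBP3, GADD45A and TGFB2 were higher, and the median was -0.31 against 0.05 over 21587 gene names. Of those names, 4.86% were 2-fold or more lower in NM than in OM and 3.54% higher. With normexp 1 gene of the list was counted lower, and with quantile normalization 1 higher.

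**Figure D4:**
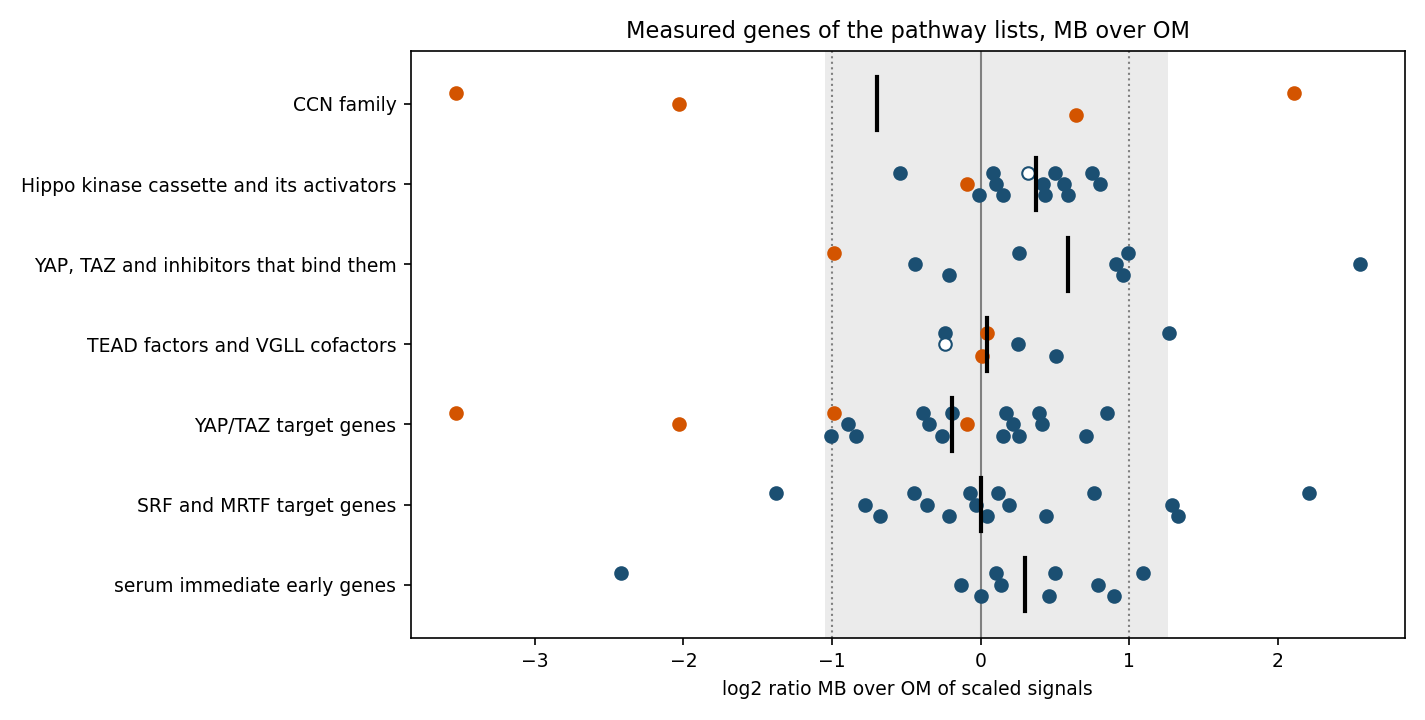
Log2 ratio MB over OM of housekeeping-scaled signals for each measured gene of 7 lists, with the 10 members described here in orange, other genes in blue, open points where 1 of the arrays was near background, a black bar at the list's median and a grey band from the 5th to the 95th percentile of all measured gene names. CYR61 and CTGF are the 2 leftmost points of the CCN and of the YAP/TAZ target lists, whose medians are -0.69 and -0.19. The list labelled YAP, TAZ and inhibitors that bind them also holds LIMD1 and JUB, which inhibit LATS kinases.

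The genes of the Hippo kinase cassette and its activators were not counted past 2-fold between MB and OM, with 11 of 14 above 0 on the log2 scale. Of 15 genes of this list, 14 were measured in these arrays, and 0 were past 2-fold in either direction. Of all gene names, 3.39% were lower and 5.42% higher. The median log2 ratio of the list was 0.37, against 0.09 over all gene names. Across the alternatives the list median ran from 0.09 to 0.42. The median of all gene names fell to -0.19 under spike-in scaling, so signs near 0 depend on the scaling. LATS1 and DCHS1 were under 100 a.u. in both MB and OM, so they could not be counted past 2-fold. STK3, STK4, SAV1, MOBKL1A, MOBKL1B, LATS1, WWC1, FRMD6, TAOK1, TAOK2 and TAOK3 lay between -0.01 and 0.80, and LATS2 at -0.09. DCHS1 was well above background in MB alone of these arrays, at least 1.25-fold higher than in OM. NF2, the upstream activator merlin, was the lowest at -0.54 by its brightest probe, which read 61172 a.u. in OM, 41182 in MB and 47576 in NM. Its 4 probes ran from -1.18 to -0.54, so the brightest was the one nearest 0. FAT4 was not well above background. Between MB and NM, TAOK1 was 2.17-fold higher in MB, which was under 2-fold with quantile or spike-in scaling, with normexp and without background subtraction. LATS1, not well above background in NM, was at least 1.27-fold higher in MB at signals under 100 a.u., and no other gene of the list was counted past 2-fold. Of all gene names, 8.39% were 2-fold or more lower in MB than in NM and 11.1% higher.

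The genes of YAP, TAZ and regulators listed with them lay above 0 on the log2 scale of MB over OM for 5 of 8, with AMOTL2 the lowest of the list. The list mixes inhibitors of YAP such as AMOTL2 with LIMD1 and JUB, which inhibit LATS kinases, so its median describes no single role. WWTR1, which encodes TAZ, read 6754 a.u. in OM, 12366 in MB and 2962 in NM, 1.87-fold higher in MB than in OM. YAP1 read 2145, 4073 and 1594 a.u. at its brighter probe, 1.94-fold higher in MB than in OM, but its other probe gave a log2 ratio of -0.05. LIMD1, a LIM protein that inhibits LATS kinases, was 5.86-fold higher in MB than in OM and was the gene of 8 in this list past 2-fold, from 51.7 a.u. in OM to 296 in MB.

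AMOTL1, a close relative of AMOTL2, went the other way: it read 4739 a.u. in OM, 9228 in MB and 1965 in NM, 1.99-fold higher in MB than in OM. PTPN14, AMOT and JUB lay at log2 ratios of 0.26, -0.21 and -0.44 in the same comparison. The median of the list was 0.58 for MB over OM and 0.99 with NM in place of OM. Against NM, YAP1, WWTR1, AMOTL1 and LIMD1 were 2-fold or more higher in MB, although the other YAP1 probe gave a log2 ratio of -0.59, and with the mean over all probes 3 genes were. JUB was 2.11-fold lower in MB than in NM, a difference under 2-fold with no scaling. Between NM and OM, AMOTL1 was 2.12-fold lower in NM, with log2 ratios from -1.35 to -0.92 over its probes. WWTR1 and AMOT lay just outside the step there, at -1.0 and -0.99. Across the alternatives, from 1 to 3 genes of the list were lower in NM, against 4.86% of all gene names as reported.

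Of the 8 TEAD and VGLL genes, 7 were measured in MB or OM, and VGLL4 was past 2-fold. VGLL4, a cofactor that competes with YAP for TEAD, read 3453 a.u. in OM, 8129 in MB and 3185 in NM, 2.41-fold higher in MB than in OM and 2.29-fold higher than in NM, and the former was under 2-fold with spike-in scaling. TEAD2 and TEAD3 lay at log2 ratios MB over OM of 0.51 and 0.25 and VGLL3 at -0.24. VGLL2 was not well above background in MB, at least 1.15-fold below OM, and VGLL1 was so on all arrays. The median log2 ratio of the list was 0.04, with TEAD1 itself at that value. Over all gene names the median was 0.09. The share 2-fold or more higher in MB was 5.42% against OM and 11.1% against NM.

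CYR61 and CTGF also respond to serum response factor (SRF) and to serum, so lists of such genes were placed beside them. Of 19 SRF and MRTF target genes, 16 were measured in MB or OM. Of these 1, TPM1, was lower in MB by 2-fold or more and 3, ACTG2, TAGLN and EGR1, were higher, with a median log2 ratio of 0.01. Over all gene names 3.39% were lower and 5.42% higher, with a median of 0.09. TPM1, a tropomyosin of stress fibres, read 173160 a.u. in OM, 64882 in MB and 85789 in NM at its brightest probe, 2.61-fold lower in MB than in OM, while its 6 probes ranged from -1.57 to 0.38. ACTG2, a smooth muscle actin, went from 387 a.u. in OM to 1750 in MB and 387 in NM. The CArG box, the SRF motif, was in none of the 5 member windows of 250 bases and in 1.16% of all windows. Those windows belong to CTGF, ANKRD1, AMOTL2 and LATS2. No window was at hand for CYR61, so its promoter was not searched for either motif.

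Of 10 serum immediate early genes, ATF3 was lower in MB than in OM by 2-fold or more and EGR2 was higher, with a median log2 ratio of 0.30. The median over all gene names was 0.09, with 3.39% lower and 5.42% higher. EGR2, at 2.13-fold, was under 2-fold with 75th percentile, quantile or spike-in scaling. ATF3, a stress-induced transcription factor, read 5226 a.u. in OM, 951 in MB and 8358 in NM, 5.37-fold lower in MB than in OM and 9.79-fold lower than in NM. Like CYR61 it was lowest in MB, but NM was above OM. ATF3 was the only gene of the 10 counted 2-fold lower in MB than in NM. FOS and EGR3 were higher there, at 2.64-fold and 5.27-fold. Of the SRF list, 0 genes were 2-fold lower in MB than in NM. ACTG2, EGR1 and CNN2 were higher, the first at 4.06-fold and the second at 5.85-fold. Of all gene names, 8.39% were 2-fold or more lower in MB than in NM and 11.1% higher. Across the alternatives, from 2 to 4 SRF genes were higher, and 1 was lower with spike-in scaling. In NM against OM, FOS and EGR3, and CNN2, FOSB and EGR1 of the SRF list, were lower by between 2.33-fold and 3.74-fold. EGR2 was 2.27-fold higher, though under 2-fold with no scaling. FOSB read 123 a.u. in OM and 31.7 in NM, near the lowest signal called well above background there. Across the alternatives, from 2 to 5 SRF genes were lower in NM. Of all gene names, 4.86% were lower in NM and 3.54% higher. CNN2, a calponin that binds actin, read 3336 a.u. in OM, 2042 in MB and 860 in NM and was 2.13-fold above NM in MB. CYR61 is itself often counted among the immediate early genes, and its ratio MB over OM lay below that of each of the 10.

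Genes with the pattern most like CYR61 were sought over the ratios MB over OM and MB over NM, by Euclidean distance on the log2 scale, among 10927 named genes well above background on all 3 arrays. The nearest was MMP1, an interstitial collagenase, at a distance of 0.04, with 4367 a.u. in OM, 378 in MB and 2947 in NM. COL13A1, a transmembrane collagen, followed at 0.30 with 6836, 712 and 5353 a.u. LST1, LPL and PTX3 came next, at 0.58, 0.60 and 0.61, with LST1 at only 26.2 a.u. in MB. For CTGF the nearest were CSMD2 at 0.11, SAA2 at 0.12, NEXN at 0.24, and KCNJ2 and FBXO32 at 0.28 each. Of these, 3 were dim, so their ratios are less certain. In OM, MB and NM, CSMD2 read 152, 37.2 and 51.8 a.u., SAA2 247, 62.6 and 87.7, and KCNJ2 143, 41.1 and 65.3. FBXO32, a muscle ubiquitin ligase, read 16868 a.u. in OM, 4177 in MB and 7561 in NM, and NEXN, an actin-binding protein, read 1171, 330 and 513 a.u. These lists rest on 3 arrays, and the 2 ratios share the MB array.

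Markers of other cell types were set beside the members, since in bulk RNA fewer cells of a type and less RNA per cell cannot be told apart. Of 7 fibroblast markers, 3 or 4 were well above background on each array, with PDGFRA, PDGFRB and THY1 detected and COL1A1, COL1A2 and LUM at background on all arrays. Their summed scaled signal was 7764 a.u. in OM, 13344 in MB and 7871 in NM, so it was highest where CYR61 and CTGF were lowest. The melanocyte lineage sum went the same way, with 32230, 55435 and 21799 a.u. Both sums rest mainly on bright probes, PDGFRA in the first and S100B and SOX10 in the second. Of 4 fibroblast markers measured in MB or OM, 3 were above 0 in log2 MB over OM and THY1 was below, at -0.25. Of 6 melanocyte markers, 4 were above 0, and SILV and DCT were below, at -0.42 and -0.05. The 4 endothelial markers summed to 229, 512 and 156 a.u., with CDH5 at background. VWF was 2.15-fold higher in MB than in OM and 3.66-fold higher than in NM. PECAM1 was well above background in MB alone, at 87.7 a.u. KDR went the other way and was well above background in OM alone, at 26.7 a.u. The 4 leukocyte markers summed to 208, 222 and 219 a.u., with PTPRC at background. Their part in the differences of the members was not tested.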

How the data were processed

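RNA of 3 populations of the 1205Lu line was measured on 1-colour Agilent arrays, 1 array each, and the deposited values are spot intensities that the authors extracted with Agilent Feature Extraction 9.5, background-subtracted, in arbitrary units. The authors took folds relative to the mean of 3 housekeeping genes and asked for more than 100 a.u., and the same scaling and minimum were used here. Of HSP90 genes, HSP90AA1 was taken.

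Control features and flagged outlier features were dropped, repeated spots were averaged, and the probe with the highest mean signal stood for a gene in counts at 2-fold and 5-fold. Members, lists and motifs were chosen with earlier results of these data known. The genes named are all members, the list genes past 2-fold, the measured genes of the Hippo and YAP lists, cell type markers and the 5 genes nearest to CYR61 and to CTGF. The code of the fold rule was run on simulated arrays with known changes in bright probes. That run did not cover dim probes, lower bounds or variation between cultures. Python 3.11.15, pandas 2.3.3, numpy 2.4.6, R 4.3.3 and limma 3.58.1 (normexp, offset 50) were used. List names were matched to older array names through RefSeq symbols, which gave MOBK1B for MOBKL1B, FER1L3 for MYOF, DDEF1 for ASAP1 and DOC1 for FILIP1L, and NUAK2 was not matched. Alternatives were other scalings, background corrections and probe choices. The number of arrays limits the precision.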

Additional observations from a re-analysis of the deposited data

How the results depend on the processing

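No paired analysis was possible because each population has 1 array. Of 12 counts of members past 2-fold or 5-fold, each under 11 alternatives, 127 of 132 values were the same count as reported, and 5 gave 3 members rather than 2 lower in MB than in OM by 2-fold, with AMOTL2 added (no scaling, or scaling by spike-ins, quantiles, the 75th percentile or a geometric mean). The log2 ratio of CYR61 in MB over OM was -3.71 under 75th percentile scaling, -3.64 under quantile normalization and -3.80 under spike-in scaling, and that of CTGF was -2.22, -2.12 and -2.31. In MB over NM, CYR61 was -3.20 with the 75th percentile, -3.02 with quantiles, -2.93 with no scaling, -3.22 with spike-ins and -3.18 with the geometric mean, and CTGF was -0.85 with the 75th percentile, -0.58 with no scaling, -0.87 with spike-ins and -0.83 with the geometric mean. At its brightest probe CYR61 was 11.3-fold or more lower in MB than in OM and 7.63-fold or more lower than in NM under each alternative, and over its 3 probes the lowest folds were 11.2 and 7.58. No ratio past 2-fold changed sign. NOV ran from 3.55-fold to 4.33-fold in MB over OM, and WISP1 from 3.09-fold to 4.10-fold in MB over NM. The median log2 ratio of the YAP/TAZ target list without the members ran from -0.12 to 0.15 in MB over OM, and the median of all gene names from -0.19 under spike-in scaling to 0.09, so its sign depends on the scaling. LATS2 in MB over NM, both TEAD1 probes in MB over OM and TEAD4 in all 3 comparisons also changed sign between scalings, all within 1.21-fold. Counts for the lists moved more: 49 of 528 values differed from the reported count by over 1.5 times, by at most 3 genes, and 2-fold lower YAP/TAZ targets in MB than in OM were 3 as reported and 5 or 6 with quantile, 75th percentile or spike-in scaling and 2 with normexp or without background subtraction. Over all gene names, 753 were 2-fold lower in MB than in OM and 1355 under spike-in scaling, and 1204 were higher and 709 under it. Those 5-fold lower were 123, and 35 with normexp, 39 without background subtraction and 62 with both arrays above background. Counts of 297 lower in MB than in NM by 5-fold, 1050 lower in NM than in OM by 2-fold and 134 higher in NM than in OM by 5-fold became 130, 550 and 35 with normexp and 152, 645 and 47 without background subtraction. The cause was not tested. A single spot gives each member probe its value, and dim probes (WISP2, ANKRD1, the second WISP1 probe in NM) carry bounds or no fold.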
